A study of Mus musculus with 24 samples.

Results

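Imprinted genes are transcribed mainly from the allele inherited from 1 parent. The 38 imprinted genes described here were listed by name, with earlier results of these data known, by a rule that uses no measured value. They were looked up by exact name in the deposited RNA-seq table of *Smarcc1* and *Smarca4* knockdown. Of the 38, 34 were among the 25965 rows of the table, and *Peg13*, *Rian*, *Kcnq1ot1* and *Mirg* were not analysed here. The unit is rpm, which counts reads per gene as if each library held 1000000 reads. A mean of at least 1 rpm over all libraries was reached by 32 members, which were tested, and *Airn* and *Slc22a18* fell below it. By textbook assignment 14 of the 34 are maternally expressed and 18 paternally expressed, while *Grb10* and *Gnas* depend on the tissue or transcript.

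The cells were male mouse embryonic stem cells (mESCs) of the C57/Bl6 strain, kept in 2i medium, which holds the cells in naive pluripotency, and then moved stepwise into the serum medium DME HiHi to differentiate without direction to a lineage. A short hairpin RNA (shRNA) was brought in by virus on day 2, cells without the virus were removed by puromycin on day 3, and RNA was taken on days 4, 5, 6 and 7. The 20 libraries are 4 with a nonsilencing hairpin (Nons), 8 with a hairpin against *Smarcc1* (Smarcc1.6 or Smarcc1.7) and 8 with a hairpin against *Smarca4* (Smarca4.4 or Smarca4.6), so each hairpin has 1 library per day and Nons has 1 series of 4 libraries. All groups share the strain, the sex, the virus and the puromycin, and the strain is inbred, so the parental alleles cannot be told apart and every level below is the sum of both alleles.

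Imprinting is set in the germline, where DNA methylation marks imprinting control regions on 1 parental chromosome, and the mark is then kept through early development by zinc finger proteins such as Zfp57 and the maintenance methyltransferase Dnmt1. Most imprinted genes lie in clusters under 1 control region, where protein-coding genes of one parental origin neighbour a long noncoding RNA of the other. Many members regulate growth of the embryo and placenta, and in mESCs grown in 2i the imprints are known to be prone to loss. Smarcc1 and Smarca4 are a core subunit and the ATPase of the BAF complex, which moves nucleosomes, and the series compares their depletion with Nons along differentiation.

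The guide strands of the hairpins are shown because they define the groups. Each is written 5′ to 3′ with its seed, bases 2 to 8, in capitals.
Nons: cTTACTCTcgcccaagcgagag
Smarcc1.6: tGTAACTGcttcttcatcctgc
Smarcc1.7: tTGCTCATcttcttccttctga
Smarca4.4: tTTATTACtgtctgactccagt
Smarca4.6: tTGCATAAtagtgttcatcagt
The *Smarcc1* guides match the coding sequence at chr9:110177472-110177493 and chr9:110173911-110173932, Smarca4.6 matches coding sequence at chr9:21670504-21670525, and Smarca4.4 matches the 3′ UTR at chr9:21703327-21703348 (mm10, GENCODE M21). No member transcript held an exact match to any of the 5 guides.

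Library totals were 6829596 reads for Smarca4.4 on day 5 and 15717152 to 27472885 for the other libraries, and 3 reads correspond to between 0.109 and 0.439 rpm. *Smarcc1* was lower than same-day Nons in 8 of 8 *Smarcc1* libraries (log2 change -1.33, SE 0.21, adjusted p = 0.0011), and *Smarca4* was lower in 8 of 8 *Smarca4* libraries (log2 change -1.79, SE 0.29, adjusted p = 0.0028). All adjusted p-values are from limma with Benjamini-Hochberg adjustment over the 13296 genes tested, with a threshold of 0.05. Because Nons has 1 library a day, the spread behind every SE comes from the hairpin pairs, and both knockdowns are compared with the same 4 Nons libraries. Nothing states that the days of a series were separate cultures, and the main fit takes them as independent. The p-values thus measure the spread between the hairpins of a gene on the same day, part of which may be technical. All 8 pluripotency markers were measured in every group, with a summed level of 708 to 2827 rpm in Nons, while *Prl3d1* of the trophoblast list was at 0 reads in every library.

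The first question was how the imprinted genes moved as the cells differentiated. Between day 4 and day 7, 20 of the 32 members tested passed the threshold, 9 higher and 11 lower on day 7. Of all genes tested 64.5% were called, 35.7% higher and 28.8% lower. The median log2 change was -0.11 over the members and 0.08 over all genes. Of 13 maternally expressed members tested, 8 were called, 4 in each direction, with a median of 0.21, and of 17 paternally expressed members 10 were called, 3 higher and 7 lower, with a median of -0.52. Centring each library on its median gene moved the median of all genes from 0.08 to -0.09, so small rises are read relative to that shift: *Copg2* and *Phlda2* were not called after centring. In these bulk libraries, fewer cells of a type and less RNA per cell cannot be told apart.

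**Figure D1:**
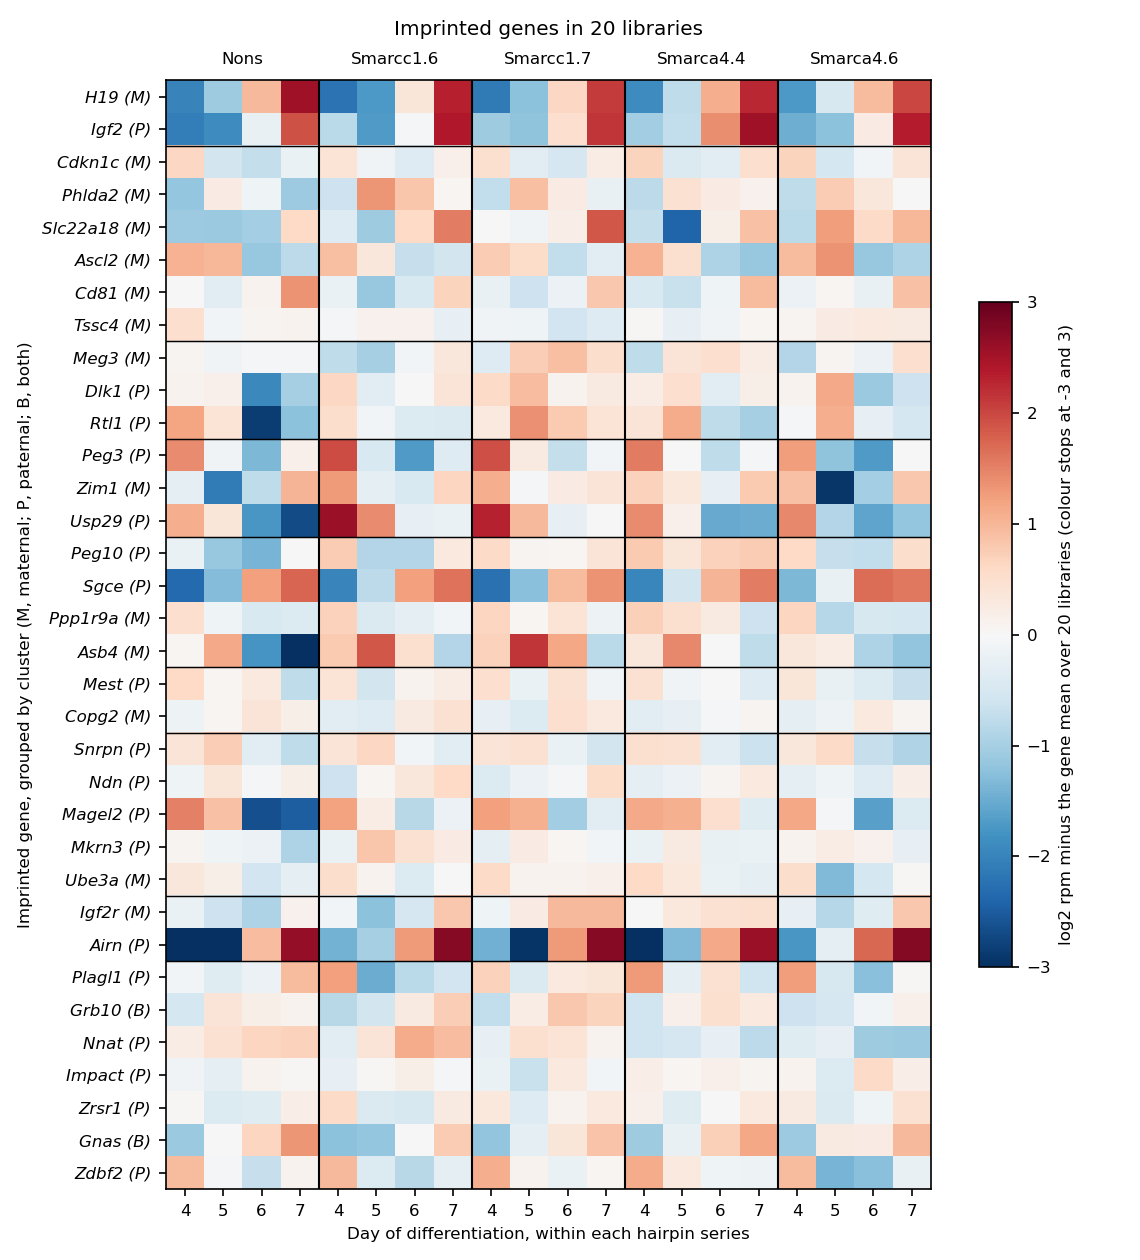
Colour shows log2 rpm minus the mean of that gene over the 20 libraries, with 1 row for each of the 34 imprinted genes grouped by cluster (rows) and 1 column for each library ordered by day within each hairpin series (columns). *H19*, *Igf2*, *Sgce* and *Airn* pass from blue on day 4 to red on day 7 in every series, *Usp29*, *Peg3* and *Magel2* are redder on day 4 than on day 7, and *Impact*, *Tssc4* and *Zrsr1* stay pale.

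Both members of the *Igf2*-*H19* cluster rose. *H19*, a maternally expressed noncoding RNA at chr7:142575529-142578143, stood at 72.2 rpm in Nons, 62.5 and 66.7 in the *Smarcc1* series and 77.4 and 87.1 in the *Smarca4* series on day 4, and at 1683, 1451, 1233, 1376 and 1151 rpm in the same order on day 7. The log2 change was 4.28 (SE 0.14, adjusted p = 1.99e-10), and the level rose at each of the 3 day steps in 5 of 5 series. *Igf2*, the paternally expressed fetal growth factor 88.7 kb away by start, lay between 6.30 and 15.1 rpm on day 4 and between 99.0 and 154 rpm on day 7 (log2 change 3.64, SE 0.23, adjusted p = 4.36e-08). The days did not overlap for either gene. From day 4 to day 5 *Igf2* was higher in 3 series and lower in the other two, by between -0.90 and 0.31 (mean -0.06, SD 0.50, n = 5 series), against a mean of 0.94 (SD 0.29) for *H19*, and it then rose in every series at both later steps. The *Igf2* interval overlaps *Igf2as* by 7124 bases on the other strand, and since no strand setting is given, reads from the pair cannot be told apart.

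In the *Peg10* cluster, neighbours with nearly the same start moved differently. *Peg10*, a retrotransposon-derived gene needed in the placenta, and *Sgce*, which encodes epsilon-sarcoglycan, are both paternally expressed and start 102 bases apart on opposite strands (chr6:4747306-4760517 and chr6:4674350-4747204). *Sgce* stood at 5.21, 6.57, 5.48, 6.74 and 10.3 rpm on day 4 (Nons, Smarcc1.6, Smarcc1.7, Smarca4.4 and Smarca4.6) and at 87.5, 80.8, 66.5, 75.3 and 78.3 rpm on day 7, a log2 change of 3.63 (SE 0.19, adjusted p = 6.78e-09). For *Peg10* the day ranges overlapped, 571 to 1127 rpm on day 4 and 662 to 1118 rpm on day 7, with a log2 change of -0.06 (SE 0.31, adjusted p = 0.883). *Peg10* was lower on day 5 than on day 4 in 5 of 5 series, by a mean of -0.95 (SD 0.52), and higher on day 7 than on day 6 in 5 of 5. The ratio of *Peg10* to *Sgce* rpm, not set per length, had a median of 167 on day 4, 28.3 on day 5, 5.91 on day 6 and 12.02 on day 7. Further along the cluster, the maternally expressed *Ppp1r9a*, which encodes neurabin, and *Asb4*, an adaptor of ubiquitin ligases, were lower on day 7 (log2 change -0.98, SE 0.25, adjusted p = 0.00394, and -2.43, SE 0.30, adjusted p = 1.28e-05). *Asb4* was at 1 read in Nons on day 7.

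**Figure D2:**
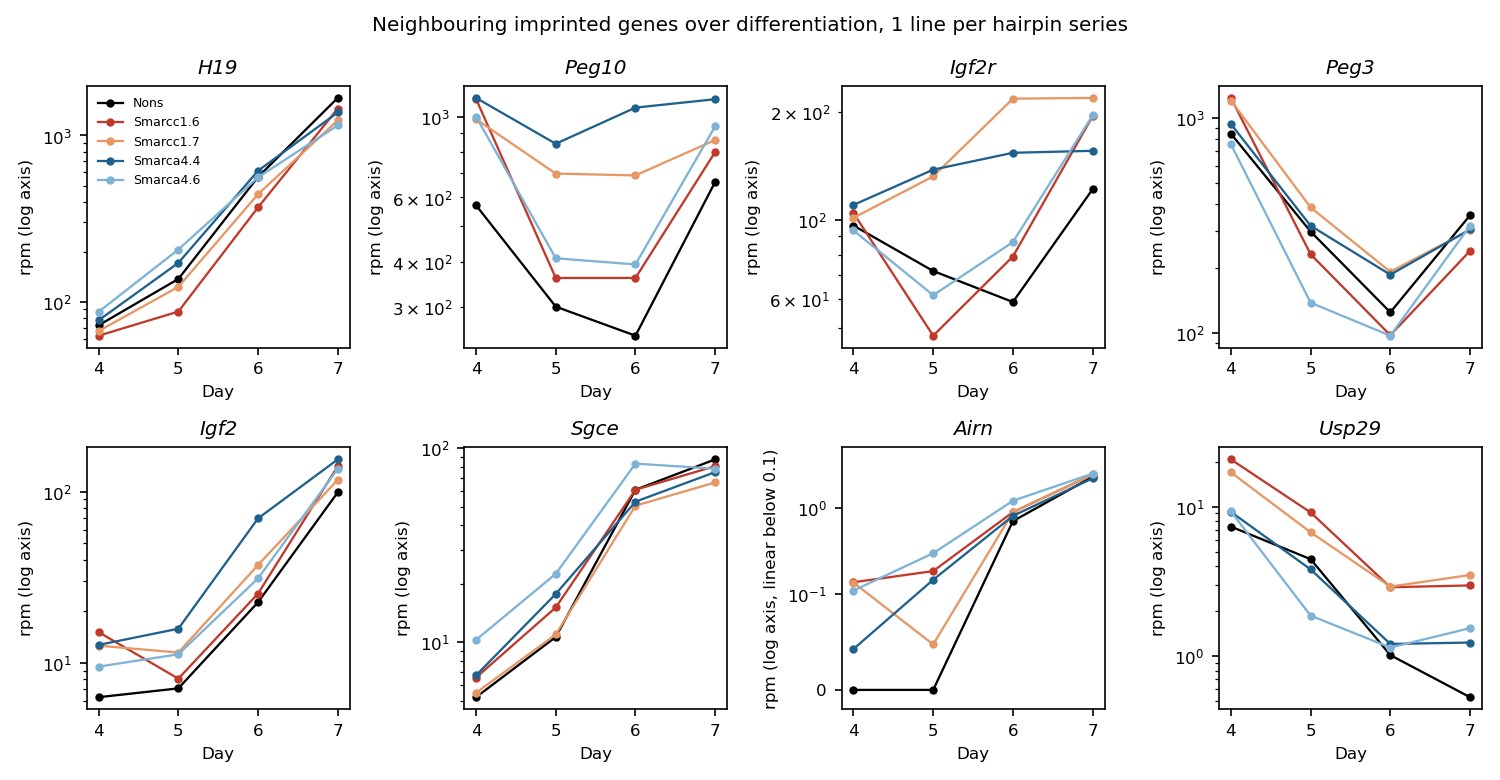
Level in rpm on a log axis against day of differentiation for 4 pairs of neighbouring imprinted genes, 1 pair per column and 1 line per hairpin series (*Airn* is linear below 0.1 rpm so that 0 can be shown). *Sgce* rose to between 66.5 and 87.5 rpm while *Peg10* dipped and recovered, and *Airn* went from at most 0.137 rpm on day 4 to between 2.20 and 2.49 rpm on day 7 in every series.

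*Igf2r* and *Airn* are a pair of members in which a noncoding RNA overlaps a coding neighbour. *Airn* is the paternally expressed RNA known to silence *Igf2r* in cis, and *Igf2r*, the maternally expressed receptor that clears Igf2, overlaps it by 28354 bases on the other strand, so with no strand setting given their reads cannot be separated there. *Airn* had 0 reads in Nons on days 4 and 5 and at most 3 reads in 8 of the 20 libraries, then reached 0.700, 0.890, 0.889, 0.806 and 1.21 rpm on day 6 and 2.29, 2.43, 2.43, 2.20 and 2.49 rpm on day 7. In a fit with no filter on low values the log2 change was 5.13 (SE 0.46, adjusted p = 7.21e-08), a value that depends on how 0 reads are set. No library of day 7 overlapped any of an earlier day. *Igf2r* lay between 93.4 and 110 rpm on day 4 and between 122 and 219 rpm on day 7, ranges that did not overlap, with a log2 change of 0.71 (SE 0.35, adjusted p = 0.0944). Its level on day 6 spread from 59.0 to 218 rpm over the series.

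In the *Peg3* cluster, *Peg3* and *Usp29* fell by different courses. *Peg3*, a paternally expressed zinc finger gene, was lower by day 5 in 5 of 5 series (mean step -1.92, SD 0.47), lower again by day 6 in 5 of 5 (-0.95, SD 0.32) and higher on day 7 than on day 6 in 5 of 5 (1.17, SD 0.47). Over the whole interval its log2 change was -1.63 (SE 0.28, adjusted p = 0.000225), from between 755 and 1239 rpm to between 241 and 353 rpm. *Usp29*, a paternally expressed deubiquitinase gene, stood at 7.35, 20.7, 16.9, 9.22 and 9.28 rpm on day 4 and at 0.533, 2.97, 3.49, 1.24 and 1.54 rpm on day 7 (Nons, Smarcc1.6, Smarcc1.7, Smarca4.4, Smarca4.6), a log2 change of -3.02 (SE 0.22, adjusted p = 1.11e-07). Between days 6 and 7 it was higher in the 4 knockdown series and lower in Nons (mean -0.03, SD 0.53). *Zim1*, the maternally expressed zinc finger gene of the cluster, lay between 0.170 and 3.15 rpm in all libraries, and its days overlapped.

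In the *Snrpn* cluster, known from Prader-Willi and Angelman syndromes, *Snrpn*, which encodes a splicing protein, was lower on day 7 (log2 change -1.05, SE 0.12, adjusted p = 7.4e-06), and so was *Magel2*, a MAGE family gene (-2.33, SE 0.39, adjusted p = 0.000168). *Ndn*, another MAGE family gene 28.7 kb from *Magel2* and like it paternally expressed, rose (0.65, SE 0.15, adjusted p = 0.00168), from between 8.12 and 11.3 rpm to between 14.2 and 18.99 rpm, and with quantile normalization it was not called (0.34, adjusted p = 0.0857). *Magel2* was low, between 2.60 and 3.35 rpm on day 4 and between 0.213 and 1.05 rpm on day 7. *Ube3a*, the maternally expressed ubiquitin ligase, was at 146 to 175 rpm on day 4 and 94.7 to 127 rpm on day 7 without overlap, with an adjusted p of 0.0541. *Snrpn* also overlaps *Snurf* by 9601 bases on the same strand.

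Members of the other clusters also moved in both directions. In the *Kcnq1ot1* domain, *Cd81*, a tetraspanin, and *Phlda2*, which restrains placental growth, rose (log2 changes 1.18 and 0.50), and *Ascl2*, a transcription factor of the trophoblast lineage, and *Cdkn1c*, a cell cycle inhibitor, fell (-1.72 and -0.43). *Phlda2* was highest on day 5, higher than on day 4 in 5 of 5 series (mean step 1.56, SD 0.26) and then lower at each later step in 5 of 5. Among single genes, *Gnas*, which encodes the stimulatory G protein subunit, and *Grb10*, an adaptor of growth factor receptors, rose (2.21 and 0.99), whereas *Zdbf2* fell (-1.08). The interval of *Gnas* overlaps *Nespas* by 11117 bases and *Gm20721* by 16394 bases, both on the other strand, and without a stated strand setting their reads cannot be told apart. In the *Dlk1*-*Meg3* cluster *Rtl1* fell (-1.25), and neither *Meg3* nor *Dlk1* passed the threshold (adjusted p = 0.0663 and 0.0856). *Mest*, which encodes a hydrolase, fell and *Copg2*, a coatomer subunit gene that overlaps it by 902 bases, rose (-0.92 and 0.46). *Impact*, *Zrsr1* and *Tssc4* had log2 changes of 0.09, 0.06 and -0.17, all with an adjusted p above 0.4 and overlapping days. *Mkrn3* and *Plagl1* did not pass either (-0.29 and -0.52), and *Plagl1* spread from 3.53 to 9.09 rpm on day 4 and from 2.47 to 7.30 rpm on day 7. *Slc22a18*, a transporter gene below the filter, went from between 0.364 and 0.770 rpm to between 1.17 and 2.81 rpm (log2 change 1.76, SE 0.53, adjusted p = 0.0122 in the fit with no filter). Without the Smarca4.4 series *Phlda2* and *Rtl1* had adjusted p-values of 0.0732 and 0.0694.

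Cell type markers moved over the same days. The summed pluripotency markers in Nons were 2827 rpm on day 4 and 708 rpm on day 7, the summed trophoblast markers 21.8 and 180 rpm, the mesoderm and fibroblast markers 9.79 and 53.7 rpm, the endoderm markers 4.59 and 39.3 rpm and the neural markers 67.0 and 135 rpm. In Nons on day 7, *Cdx2*, *Elf5*, *Prl3d1* and *Tpbpa* of the trophoblast list were at 0 reads, as were *Mesp1*, *Col3a1* and *Apoa1* of the mesoderm and endoderm lists. The part of these shifts in the imprinted gene changes was not tested.

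The next comparison asked which imprinted genes differed between *Smarcc1* knockdown and Nons, averaged over the 4 days. Of 32 members, 4 were called, *Usp29*, *Asb4*, *Phlda2* and *Dlk1*, all higher after knockdown, where 10.6% of all genes tested were called, 7.54% higher and 3.08% lower. The median log2 change was 0.08 over the members, 0.20 over the maternally expressed and 0.08 over the paternally expressed members, and 0.06 over all genes. By the simpler rule that all 8 knockdown libraries lie above same-day Nons, 5 of the 32 tested members qualified, *Asb4*, *Igf2*, *Peg10*, *Phlda2* and *Usp29*, against 8.69% of all genes tested, and *Cd81*, *Gnas* and *H19* lay below in all 8, against 5.17%.

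**Figure D3:**
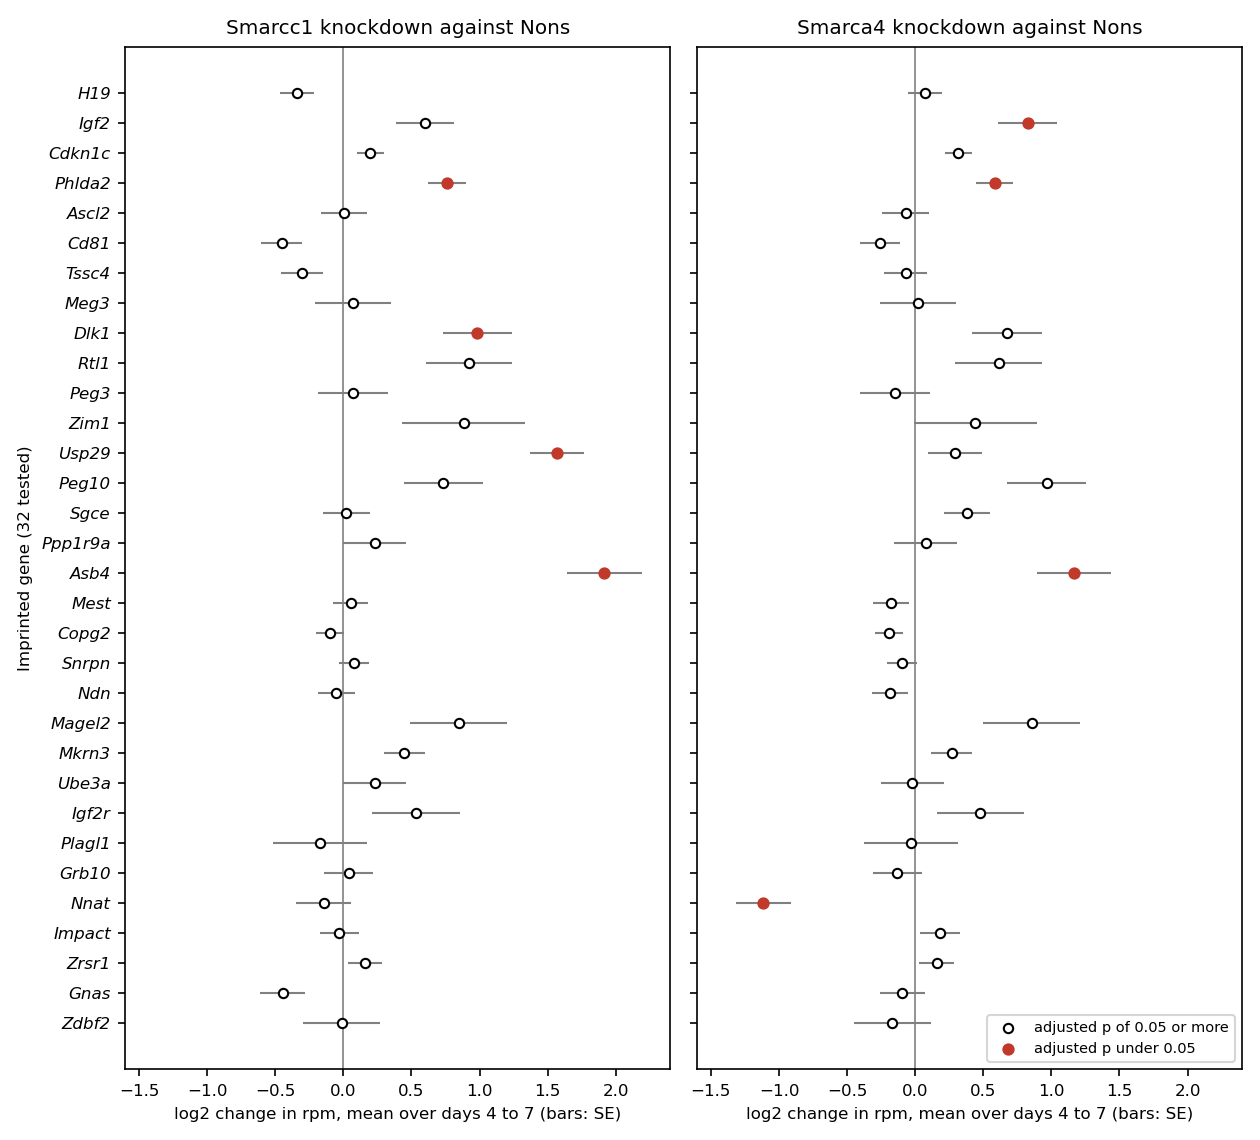
Log2 change in rpm against Nons, averaged over days 4 to 7 (horizontal axis, bars are SE from limma), for the 32 tested imprinted genes (vertical axis, grouped by cluster) in *Smarcc1* knockdown (left) and *Smarca4* knockdown (right). Filled points passed an adjusted p of 0.05: *Usp29*, *Asb4*, *Phlda2* and *Dlk1* on the left, and *Asb4*, *Phlda2*, *Igf2* and, below 0, *Nnat* on the right.

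*Usp29* had the clearest difference. It stood at 7.35, 4.46, 1.02 and 0.533 rpm in Nons on days 4 to 7, at 20.7, 9.14, 2.89 and 2.97 rpm with Smarcc1.6 and at 16.9, 6.74, 2.92 and 3.49 rpm with Smarcc1.7. Every *Smarcc1* library was above same-day Nons, by 0.60 to 2.71 on the log2 scale, and both hairpins gave similar means of 1.63 and 1.51. The log2 change was 1.57 (SE 0.20, adjusted p = 0.000316), 2.97-fold, and it passed the threshold under each alternative in which it was tested. *Peg3*, its neighbour, had a log2 change of 0.07 (SE 0.26, adjusted p = 0.901), with 4 of the 8 libraries above Nons.

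RefSeq windows (GRCm38.p6) run from 250 bases before to 50 bases after a start. Those of *Usp29*, *Phlda2*, *Asb4* and *Nnat*, members called in a knockdown, are shown with each CpG in capitals. Windows of *Dlk1* and *Igf2*, also called, and a further *Asb4* window are not shown. CpG methylation is the imprinting mark at control regions, and whether these windows carry it was not analysed here. The RefSeq starts of *Peg3* and *Usp29* lie 164 bases apart on opposite strands, at chr7:6730419-6730419 and chr7:6730583-6730583, and 263 bases of their windows are shared, while the interval of *Usp29* in the deposited table, chr7:6961160-6963769, starts 230577 bases downstream of the RefSeq start.
Usp29, chr7:6730333-6730632, plus strand: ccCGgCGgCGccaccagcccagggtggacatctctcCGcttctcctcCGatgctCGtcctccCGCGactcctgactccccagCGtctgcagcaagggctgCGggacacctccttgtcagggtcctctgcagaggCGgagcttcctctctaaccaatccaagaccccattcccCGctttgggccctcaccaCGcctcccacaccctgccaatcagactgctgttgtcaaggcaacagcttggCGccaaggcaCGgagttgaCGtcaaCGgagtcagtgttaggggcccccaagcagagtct
Phlda2, chr7:143502475-143502774, minus strand: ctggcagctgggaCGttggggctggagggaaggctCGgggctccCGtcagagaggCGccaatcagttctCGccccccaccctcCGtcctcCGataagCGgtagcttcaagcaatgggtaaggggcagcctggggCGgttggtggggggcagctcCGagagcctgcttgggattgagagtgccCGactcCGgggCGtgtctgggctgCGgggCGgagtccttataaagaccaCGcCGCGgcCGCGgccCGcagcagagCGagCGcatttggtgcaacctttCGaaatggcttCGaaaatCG
Asb4, chr6:5383136-5383435, plus strand: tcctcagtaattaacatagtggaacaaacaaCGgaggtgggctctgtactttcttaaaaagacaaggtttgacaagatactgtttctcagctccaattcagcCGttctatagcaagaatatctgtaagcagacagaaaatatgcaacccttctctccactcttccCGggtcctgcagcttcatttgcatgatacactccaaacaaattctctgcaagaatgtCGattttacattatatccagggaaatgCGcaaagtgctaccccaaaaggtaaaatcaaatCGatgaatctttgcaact
Nnat, chr2:157559828-157560127, plus strand: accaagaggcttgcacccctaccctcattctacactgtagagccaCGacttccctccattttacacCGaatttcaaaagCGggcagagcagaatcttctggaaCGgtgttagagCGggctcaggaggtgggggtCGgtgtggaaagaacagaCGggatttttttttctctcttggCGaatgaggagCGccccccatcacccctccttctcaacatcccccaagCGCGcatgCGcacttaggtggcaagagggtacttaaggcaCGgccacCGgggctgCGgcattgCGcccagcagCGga
They hold 17, 26, 6 and 17 CpGs. Of the 34 members 28 had RefSeq windows, 44 in all, with a median of 15 CpGs against 7 over all 32851 windows. The hexamer TGCCGC, the core of the sequence that Zfp57 binds when methylated, was found on either strand in 11 of the 44 windows (25%), the *Nnat* window included, and in 11.6% of all windows. The hexamer itself holds a CpG, and the member windows hold more CpGs, so these shares are not matched for CpG content. The 11 also include overlapping windows of *Mest*, chr6:30737800-30738099 and chr6:30737803-30738102. A match is a description of these letters and not a binding site.

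*Asb4* stood at 1.13, 2.38, 0.318 and 0.0533 rpm in Nons, and at 0.595 to 4.79 rpm in the 8 *Smarcc1* libraries (median 1.82), all above same-day Nons. Its log2 change was 1.92 (SE 0.27, adjusted p = 0.000695), 3.77-fold, but the Nons value on day 7 is 1 read. On days 4 to 6 alone the 6 *Smarcc1* libraries lay 0.65 to 2.92 above Nons, with a mean of 1.38. With 1 rpm added to every value the change was 0.71, and with quantile normalization 0.94, and both passed.

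*Phlda2* stood at 16.3, 44.0, 33.6 and 17.2 rpm in Nons, at 23.7, 91.8, 65.7 and 38.3 rpm with Smarcc1.6 and at 22.1, 68.9, 43.4 and 31.7 rpm with Smarcc1.7. All 8 were above same-day Nons, by 0.37 to 1.16, and Smarcc1.6 lay above Smarcc1.7 on each of the 4 days. This gave a log2 change of 0.76 (SE 0.14, adjusted p = 0.00355), 1.69-fold, and it passed under each of the alternatives run.

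*Dlk1*, which encodes a membrane protein related to Notch ligands, stood at 4.404, 4.61, 1.08 and 2.08 rpm in Nons and at 3.23 to 7.78 rpm in the *Smarcc1* libraries (median 5.19). In 7 of 8 libraries it was above same-day Nons, the exception being Smarcc1.6 on day 5. On average the log2 change was 0.98 (SE 0.26, adjusted p = 0.0263). This call was lost without the Smarcc1.7 series (0.84), and without Smarca4.4 or Smarca4.6, for a cause that was not tested. It was also lost with the hairpin series as a replicate block (adjusted p = 0.156) and with quantile normalization (0.72, adjusted p = 0.0681). The reciprocal noncoding RNA *Meg3* had a log2 change of 0.07 (SE 0.28, adjusted p = 0.911), and Smarcc1.7 lay above Smarcc1.6 for it on each day, by 1.73 on day 5. This average covers a change of sign. Against same-day Nons the *Smarcc1* libraries were at -0.85 and -0.49 on day 4 and at 0.40 and 0.58 on day 7.

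Of the 28 members not called, *H19* was below same-day Nons in 8 of 8 *Smarcc1* libraries, by 0.11 to 0.65 (log2 change -0.34, adjusted p = 0.109), and *Gnas* and *Cd81* were below in 8 of 8 with log2 changes of -0.45 each (adjusted p = 0.12 and 0.0765). After centring on the median gene these 3 passed (adjusted p = 0.0437, 0.0367 and 0.0355) and 7 members were called in place of 4. *Igf2* and *Peg10* were above Nons in 8 of 8 with changes of 0.60 and 0.74 that did not pass (adjusted p = 0.106 and 0.142). *Sgce* had a log2 change of 0.02 (SE 0.17) and *Snrpn* of 0.08 (SE 0.11). *Rtl1* had a change of 0.92 (adjusted p = 0.0912), and without Smarcc1.6 it was called (1.33, adjusted p = 0.0232). *Zim1* (0.88, adjusted p = 0.273) was called without Smarca4.4 or Smarca4.6 and without the library with the fewest reads (adjusted p = 0.044, 0.0419 and 0.0194), and *Cd81* without that library (adjusted p = 0.0285).

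*Smarca4* knockdown was compared with Nons in the same way, against the same Nons libraries. Of 32 members, 4 were called, with *Asb4*, *Igf2* and *Phlda2* higher and *Nnat* lower, where 6.71% of all genes tested were called, 4.75% higher and 1.96% lower. The median log2 change was 0.07 over the members, 0.07 over the maternally expressed and 0.18 over the paternally expressed members, and 0.06 over all genes. All 8 *Smarca4* libraries lay above same-day Nons for *Cdkn1c*, *Dlk1*, *Igf2*, *Peg10* and *Phlda2*, against 9.85% of all genes tested, and below it for *Copg2* and *Nnat*, against 4.48%. With the hairpin series entered as a replicate block, none of the 4 calls passed (adjusted p = 0.125 for *Asb4*, 0.165 for *Igf2*, 0.122 for *Phlda2* and 0.0542 for *Nnat*).

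*Nnat*, the member called lower, encodes neuronatin, a small membrane protein of the endoplasmic reticulum. It lies at chr2:157560078-157562522, wholly inside the *Blcap* interval on the other strand, from which its reads cannot be separated without a strand setting. Its level was 18.4, 21.6, 24.4 and 25.1 rpm in Nons on days 4 to 7, 10.3, 11.1, 13.2 and 9.10 rpm with Smarca4.4 and 12.2, 13.3, 7.43 and 7.29 rpm with Smarca4.6. No *Smarca4* library reached the lowest Nons value, whichever the day, and the same-day differences ran from -1.78 to -0.59. Over the 4 days the log2 change was -1.12 (SE 0.20, adjusted p = 0.0058), 2.17-fold lower. Without Smarca4.6 it was -1.03 (adjusted p = 0.0834). *Blcap* had a log2 change of 0.26 (SE 0.14, adjusted p = 0.352). In *Smarcc1* knockdown *Nnat* lay between 12.6 and 34.1 rpm and overlapped Nons (log2 change -0.14, SE 0.20, adjusted p = 0.722).

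**Figure D4:**
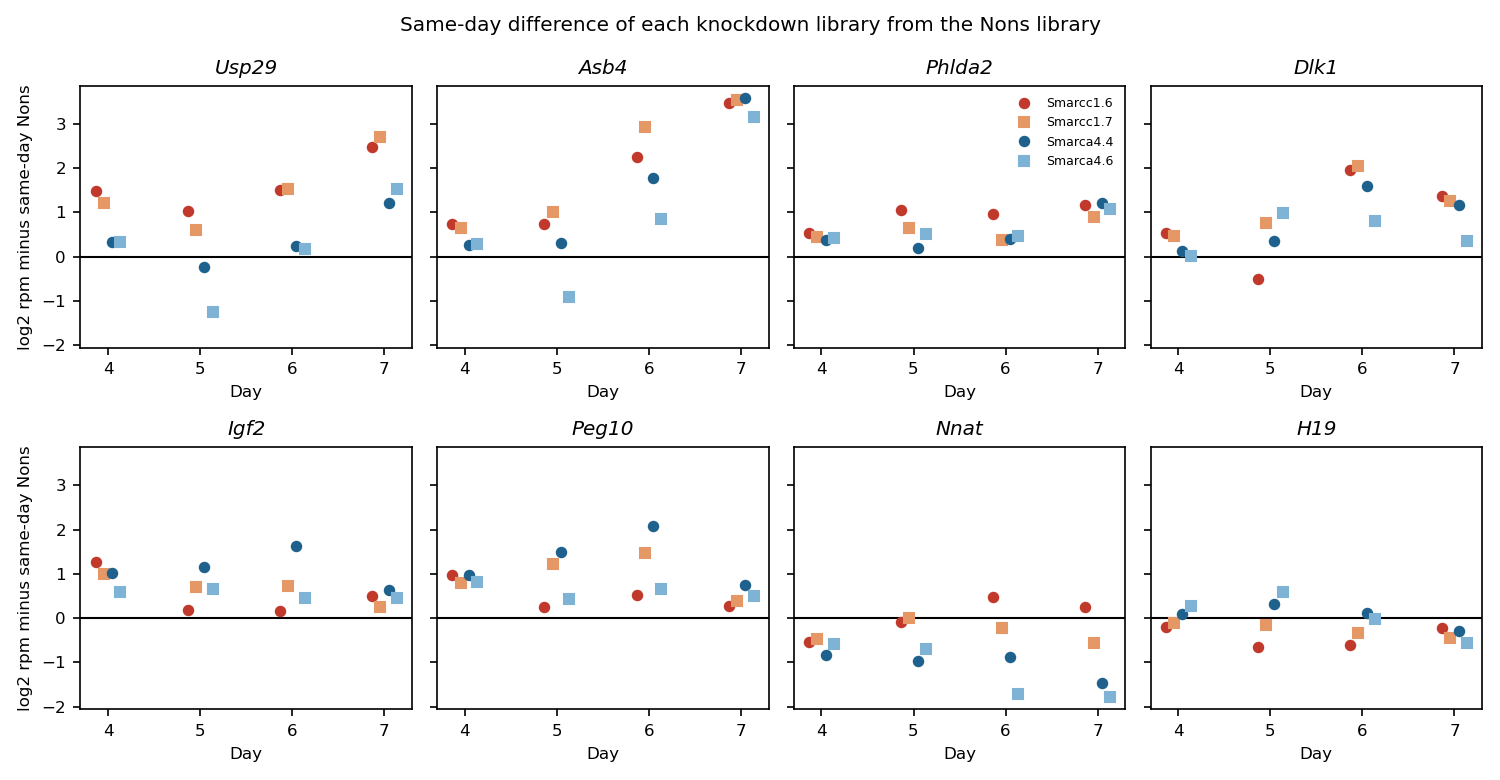
Log2 rpm minus the same-day Nons library (vertical axis) against day (horizontal axis) for 8 imprinted genes, 1 point per knockdown library, with circles and squares for the hairpins of each gene. Points for *Usp29* with the *Smarcc1* hairpins are all above 0 by at least 0.60, *Phlda2*, *Igf2* and *Peg10* are above 0 in all 16 knockdown libraries, and *Nnat* is below 0 in all 8 *Smarca4* libraries. Both knockdowns are set against the same 4 Nons libraries. Of all genes tested, 8.69% were above 0 in all 8 *Smarcc1* libraries and 9.85% in all 8 *Smarca4* libraries, and 4.48% were below 0 in all 8 *Smarca4* libraries. The share above 0 in all 16 was not computed.

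*Igf2* stood at 6.30, 7.09, 22.6 and 99.0 rpm in Nons, at 12.7, 15.8, 69.7 and 154 rpm with Smarca4.4 and at 9.50, 11.2, 31.1 and 136 rpm with Smarca4.6. All 8 libraries exceeded same-day Nons, by 0.45 to 1.63, and Smarca4.4 exceeded Smarca4.6 on each day. Averaged over days, the log2 change was 0.83 (SE 0.21, adjusted p = 0.0377), 1.77-fold. Leaving out Smarca4.4 gave 0.54 (adjusted p = 0.212), leaving out Smarcc1.6 or Smarcc1.7 gave adjusted p-values of 0.0667 and 0.0652, and leaving out the library with the fewest reads, Smarca4.4 on day 5, gave 0.76 (adjusted p = 0.0603). *H19* had a log2 change of 0.07 (SE 0.12, adjusted p = 0.82), with 5 of 8 libraries above Nons.

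*Phlda2* lay between 21.3 and 62.8 rpm in the *Smarca4* libraries (median 42.0), above same-day Nons in 8 of 8 by 0.20 to 1.22, with a log2 change of 0.58 (SE 0.14, adjusted p = 0.0247). Without Smarca4.4 it was 0.62 (adjusted p = 0.142) and without Smarca4.6 0.55 (adjusted p = 0.213). *Asb4* lay between 0.474 and 2.93 rpm (median 1.18), above Nons in 7 of 8, with a log2 change of 1.17 (SE 0.27, adjusted p = 0.0233) that again rests on the single read of Nons on day 7. On days 4 to 6 the mean difference was 0.43, from -0.90 to 1.78, and with 1 rpm added the change was 0.25 (adjusted p = 0.417). Without Smarca4.4 it was 0.85 (adjusted p = 0.12).

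*Peg10* was close to the threshold. It stood at 571, 301, 250 and 662 rpm in Nons, at 1127, 843, 1060 and 1118 rpm with Smarca4.4 and at 1001, 408, 393 and 942 rpm with Smarca4.6. All 8 libraries exceeded same-day Nons, by 0.44 to 2.08, and the hairpins differed most on day 6, by 1.43. The log2 change was 0.96 (SE 0.29, adjusted p = 0.0682), and it passed after centring on the median gene (0.89, adjusted p = 0.0472). *Sgce*, 102 bases away by start, had a log2 change of 0.38 (SE 0.17, adjusted p = 0.241), and its hairpins differed the other way, with Smarca4.4 below Smarca4.6 on each day.

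Markers of cell state moved with both knockdowns. In *Smarcc1* knockdown 5 of the 8 pluripotency markers were higher (*Esrrb*, *Klf4*, *Nanog*, *Sox2* and *Zfp42*) and in *Smarca4* knockdown 3 of 8 (*Esrrb*, *Nanog* and *Zfp42*). Of all genes tested, 7.54% were called higher and 3.08% lower in *Smarcc1* knockdown, and 4.75% and 1.96% in *Smarca4* knockdown. The summed pluripotency markers ran from 708 to 2827 rpm in Nons (median 1867), from 1125 to 3612 rpm in *Smarcc1* (median 2595) and from 1003 to 3162 rpm in *Smarca4* libraries (median 2262). On day 7 every knockdown library was above Nons. On day 4 the sum was 2827 rpm in Nons, 2826 to 2986 rpm in *Smarcc1* and 2458 to 2919 rpm in *Smarca4* libraries. Of the 4 trophoblast markers tested, *Tfap2c* was higher and *Krt7* lower in *Smarcc1* knockdown, and *Tfap2c* and *Hand1* were higher in *Smarca4* knockdown, with summed levels of 21.3 to 180 rpm in Nons, 28.0 to 120 rpm in *Smarcc1* and 28.6 to 184 rpm in *Smarca4* libraries. *Sox1*, 1 of 4 neural markers tested, was higher in both knockdowns (log2 changes 2.404 and 2.33). *Gata4*, 1 of 2 endoderm markers tested, was also higher in both (1.14 and 0.89). Of 4 mesoderm and fibroblast markers tested, *Col1a1* was higher and *Twist1* lower in *Smarcc1* knockdown (1.32 and -0.67), and 0 were called in *Smarca4* knockdown. The summed endoderm markers reached 39.3, 38.7 and 33.2 rpm at most, the mesoderm and fibroblast markers 53.7, 122 and 46.2 rpm and the neural markers 135, 135 and 182 rpm, in the order Nons, *Smarcc1* and *Smarca4*. In that order, the neural sum was 67.0, 104 to 120 and 85.7 to 95.5 rpm on day 4. On day 7 it was 135, 120 to 127 and 99.3 to 105 rpm. The endoderm sum on day 7 was 39.3, 36.3 to 38.7 and 32.1 to 33.2 rpm. What part these markers had in the results for imprinted genes was not tested.

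Set against each other, without Nons, the knockdowns differed at 3 of 32 members, where 4.09% of all genes tested were called, 2.55% higher and 1.54% lower in *Smarcc1* knockdown. *Usp29* was 2.42-fold higher in *Smarcc1* than in *Smarca4* knockdown (log2 change 1.28, SE 0.16, adjusted p = 0.001). In the *Smarca4* libraries it lay between 1.14 and 9.28 rpm (median 1.705), above same-day Nons in 6 of 8, and each *Smarcc1* library was above both *Smarca4* libraries of its day. *Nnat* was 1.96-fold higher in *Smarcc1* knockdown (0.97, SE 0.17, adjusted p = 0.00656). *H19* was lower (-0.41, SE 0.10, adjusted p = 0.0398), a difference of 1.33-fold. The median over the members was 0.11, and over all genes 0.00.

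These differences depend on the hairpin series to unequal degrees. *Usp29* missed the threshold without Smarcc1.6 (1.22, adjusted p = 0.0681), *Nnat* without Smarcc1.6, Smarca4.4 or Smarca4.6 (0.80, 1.05 and 0.89, adjusted p = 0.0979, 0.0601 and 0.122), and *H19* when any of the 4 series was left out (adjusted p between 0.0731 and 0.286). With the series as a replicate block, *Usp29* was called and *Nnat* and *H19* were not (adjusted p = 0.069 and 0.244). Without the library with the fewest reads 6 members were called in place of 3, with *Asb4*, *Zim1* and *Ube3a* added (0.90, 0.85 and 0.46, adjusted p = 0.0213, 0.0197 and 0.0235).

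Whether the day course itself differed was tested as the slope over days 4 to 7. For *Smarcc1* knockdown minus Nons, 0 of 32 members were called by limma, where 0.94% of all genes were called. For *Smarca4* knockdown minus Nons 0 of 32 were called, where 0.135% of all genes were called. With the recovered reads in limma-voom both counts were 0 as well. *Asb4* had the largest slope differences, 1.02 and 1.09 log2 units per day (SE 0.25 each, adjusted p = 0.0813 and 0.162), with the single Nons read on day 7 in both. With 1 rpm added they were 0.11 and 0.19. With the hairpin series as a replicate block both passed (adjusted p = 0.0268 and 0.0487). Without the library with the fewest reads the first passed (adjusted p = 0.0429).

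A list of 19 genes, all of them tested, held factors known to keep or read imprints together with factors that add or oxidise DNA methylation. In *Smarcc1* knockdown 5 of 19 were called, against 10.6% of all genes, all higher: *Dnmt3l*, a cofactor of the de novo methyltransferases (log2 change 0.98, SE 0.13), *Dnmt3a*, 1 of those enzymes (0.81, SE 0.17), *Dppa3*, which protects maternal methylation in the zygote (1.46, SE 0.25), *Tet2*, a methylcytosine dioxygenase (0.63, SE 0.18), and *Zfp57* (0.43, SE 0.09). In *Smarca4* knockdown 3 of 19 were called, against 6.71% of all genes, *Dnmt3l* (1.11, SE 0.13), *Dppa3* (1.13, SE 0.25) and *Zfp57* (0.38, SE 0.09). *Dnmt1* and *Trim28* did not pass in either. The median over the list was 0.39 and 0.30, against 0.06 over all genes in both. From day 4 to day 7, 14 of 19 were called, against 64.5% of all genes, 13 of them lower, and *Dppa3* was the exception (1.54, SE 0.27). *Dnmt3a* was also higher in *Smarcc1* than in *Smarca4* knockdown (0.63, SE 0.13, adjusted p = 0.02). Methylation at the imprinting control regions was not analysed here.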

How the data were processed

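Single-end 75 base RNA-seq reads were trimmed with trim_galore and aligned to mm10 with tophat or HISAT2 by the authors, who deposited log2 rpm values per gene from the SeqMonk RNA-seq quantitation pipeline. The annotation release and strand setting are not given in the sources used here, so overlapping genes are uncertain. The lowest value in each library equals 0.9 of a read, from which whole reads and totals were recovered (100% of values below 1000 reads were whole within 0.05), and rpm is 2 raised to the deposited value, with 0 reads written as 0 rpm. Groups followed the sample titles. A genotype label calls the *Smarca4* libraries Smarcc knockdown, against the titles and against the level of *Smarca4*. Of 24 samples, the 4 of the second Nons series were not analysed here.

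Tests used limma 3.58.1 (lmFit and eBayes with trend, R 4.3.3) on the deposited log2 values of 13296 genes with a mean of at least 0, with 12 means of group by day, 8 residual degrees of freedom, contrasts averaged over days, and Benjamini-Hochberg adjustment over all genes. Simulated data with known changes were used to test the script. Members past 0.05 are named with their values, at most 12 per comparison in full. The members and lists were chosen with earlier results of these data known. The alternatives were other filters, 1 rpm added, median centring, quantile normalization, limma-voom on recovered reads, a common lowest value, a replicate block, an additive model of day, and leaving out each hairpin or the smallest library. Intervals of gene position come from the deposited table, promoter windows from RefSeq (GRCm38.p6) and guide sequences from the supplementary tables of the study.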

Additional observations from a re-analysis of the deposited data

Results flagged for a closer look

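For 3 imprinted genes the response differed between the knockdowns by a direct test of the difference, averaged over days 4 to 7 (limma, Benjamini-Hochberg adjusted over 13296 genes). The log2 change of *Usp29* in *Smarcc1* knockdown minus that in *Smarca4* knockdown was 1.28 (SE 0.16, adjusted p = 0.001), with all 8 *Smarcc1* libraries above both *Smarca4* libraries of the same day. For *Nnat* the difference was 0.97 (SE 0.17, adjusted p = 0.00656), with the *Smarca4* libraries below the Nons library in 8 of 8 and the *Smarcc1* libraries in 5 of 8. For *H19* it was -0.41 (SE 0.10, adjusted p = 0.0398), with the *Smarcc1* libraries below Nons in 8 of 8 and the *Smarca4* libraries in 3 of 8. No group of libraries at 1 day and knockdown had more than 2 members, so single libraries standing apart were not looked for by a test. With the hairpin series as a replicate block *Usp29* alone was called, and *H19* lost its call in 8 of 14 alternatives, *Nnat* in 4 of 14 and *Usp29* in 1 of 13.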

How the results depend on the processing

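Between day 7 and day 4, 20 of 32 members were called, against 15 to 23 under the alternatives. No called change reversed its direction under an alternative, while some changes that were not called did change sign, such as *Meg3* in *Smarcc1* knockdown (-0.33 to 0.48). For *Smarcc1* knockdown 4 members were called, against 1 with a mean of at least 10 rpm, where *Usp29*, *Asb4* and *Dlk1* are not tested, 7 with libraries centred on their median gene, and 2 to 4 when a hairpin series was left out. For *Smarca4* knockdown 4 were called, against 2 with a mean of at least 10 rpm, 2 with quantile normalization and 1 to 2 when a series was left out. Between the knockdowns 3 were called, against 1 with a mean of at least 10 rpm, 0 to 2 when a series was left out and 6 without the library with the fewest reads. For the *Smarcc1* slope 0 were called, against 1, *Asb4*, without that library.

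The replicate block is the hairpin series, since the hairpin numbers pair no cultures across groups. The deviation of a hairpin from the mean of its pair was correlated across genes between days. The mean correlation was 0.331 for *Smarcc1* and 0.0932 for *Smarca4*. Over pairs of days it ran from 0.0233 to 0.823 and from -0.206 to 0.367, so the dependence between days was uneven. With the block 0 members were called for *Smarca4*, 1 between the knockdowns, 1 for each slope, 3 for *Smarcc1* and 23 between the days.

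The single Nons series limits every comparison with Nons, because its libraries cannot be left out. Single calls were also lost at these adjusted p-values: between the days *Ndn* with quantile normalization (0.0857), *Copg2* with centring (0.077), *Phlda2* with centring (0.14) and quantile normalization (0.106) and *Rtl1* with the additive model (0.0502); *Dlk1* in *Smarcc1* knockdown with quantile normalization (0.0681) and the block (0.156); in *Smarca4* knockdown *Igf2* with a mean of at least 10 rpm (0.0675) and limma-voom (0.0501), *Phlda2* with centring (0.104) and quantile normalization (0.0867), and *Asb4* with no filter (0.0504), quantile normalization (0.498), a common lowest value (0.0924) and the additive model (0.106); between the knockdowns *H19* with no filter (0.0635), a mean of at least 10 rpm (0.0599), the block (0.244) and the additive model (0.0525), and *Nnat* with the block (0.069). The causes of the changed counts were not tested. A higher filter tests fewer genes, and a left-out series leaves fewer residual degrees of freedom. At 0.109 to 0.439 rpm for 3 reads, *Airn* on days 4 and 5 and *Asb4* in Nons on day 7 are at the limit of detection.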

Other observations

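Imprinted genes outside the 38 were taken from a second list of 40, of which 37 were in the table and 22 were tested. In *Smarcc1* knockdown 3 of 22 were called (limma, Benjamini-Hochberg adjusted), against 10.6% of all genes. *Sfmbt2*, a polycomb-related gene paternally expressed in the placenta, was higher (log2 change 1.78, SE 0.29, adjusted p = 0.0015), as was *Ddc*, the decarboxylase of aromatic amino acids (1.22, SE 0.21, adjusted p = 0.0026), and *Dcn*, which encodes decorin, was lower (-2.95, SE 0.49, adjusted p = 0.0019). In *Smarca4* knockdown *Sfmbt2* (1.45, SE 0.29, adjusted p = 0.0089) and *Dcn* (-2.37, SE 0.49, adjusted p = 0.013) were called in the same directions, against the same Nons libraries, where 6.71% of all genes were called. The median log2 change of the 22 was 0.01 and 0.07, against 0.06 over all genes. Between the knockdowns 2 of 22 were called, against 4.09% of all genes, *Ddc* and *Inpp5f*, both higher in *Smarcc1* knockdown (1.04 and 0.38). From day 4 to day 7, 15 of 22 were called, against 64.5% of all genes, 9 higher and 6 lower, with a median of 0.28. *Osbpl5*, in the *Kcnq1ot1* domain, rose by 4.73 and *Phactr2* by 3.31, while *Ddc* fell by 3.10 and *Tspan32* by 2.72 on the log2 scale.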
